A study of Homo sapiens with 40 samples.

Results

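The glucocorticoid receptor (GR, gene NR3C1) and the chaperones that hold it ready for hormone were followed at the transcript level in the human lung carcinoma cell line A549. The set was named by gene: NR3C1, the immunophilins FKBP5 and FKBP4, the HSP90 genes HSP90AA1 and HSP90AB1, and the cochaperones PTGES3 and STIP1. It took every array probe annotated to 1 of these genes under a current or former symbol, and kept a probe whose mean log2 intensity was above 5 in at least 1 group. Of the 7 genes, 6 had a probe; no probe was listed under FKBP5, which was not analysed here. The 6 genes had 10 probes, of which 9 were kept, against 13903 kept probes among the 26360 in the table that carried a single gene symbol, for 18353 genes in all.

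Newly made receptor is passed from HSP70 to HSP90 by STIP1, also called HOP, an adaptor that binds both. In the mature complex an HSP90 dimer holds the hormone-binding domain open, PTGES3, also called p23, stabilises the closed HSP90 clamp, and an immunophilin completes the complex. FKBP4 (the protein FKBP52) favours hormone binding and links the receptor to dynein for its move into the nucleus, while FKBP5 (FKBP51) lowers hormone affinity. In many cell types ligand is known to lower NR3C1 mRNA.

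The study placed a nonspecific siRNA (siNS) or an siRNA against a GR coregulator, either CCAR1, CoCoA (CALCOCO1), ZNF282 or CCAR2, into A549 cells grown with serum. The cells went into hormone-free medium 2 days after transfection and were given dexamethasone (dex, a synthetic glucocorticoid, 100 nM) or its ethanol vehicle for 6 h on the following day. These 5 siRNAs and both treatments made 10 groups on 40 arrays: siNS had 6 arrays per treatment, siCCAR1, siCoCoA and siCCAR2 had 4 each, and siZNF282, whose titles name a single siRNA as ZFP282 #1, had 2. The titles of the ethanol arrays carry 0 h where the protocol gives 6 h of ethanol, and nothing in the labels says that the arrays of a group came from separate cultures, so the p-values measure a spread between arrays that may be technical. All groups share the transfection and the hormone-free medium.

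The deposited log2 values ran from 4.13 to 14.3 with array medians of 4.67 to 4.69, and pairs of arrays correlated at 0.948 to 0.993 over all probes. Precision is limited by how many arrays each group holds. Each targeted transcript was lower than in siNS cells in both treatments, by a log2 difference of −0.44 to −2.31. The siRNA against CoCoA also lowered CCAR2, by −0.96 in ethanol and −1.10 in dex, where CALCOCO1 differed by −0.44 and −0.88. The lowest group means of CALCOCO1 and CCAR1 lay below the line of 5 and below the array medians. Every group mean of CCAR2 lay above 5. The floor thus limits the falls of CALCOCO1 and CCAR1, and these values do not show whether CCAR2 or CALCOCO1 was lowered more. CALCOCO1 was called higher in siCCAR1 ethanol (0.50) and in siZNF282 ethanol and dex (0.53 and 0.66). "CoCoA depletion" below therefore stands for the cells given that siRNA, in which CCAR2 was lower too. The epithelial markers KRT8, KRT18, KRT19, CDH1 and EPCAM were all kept, with group means from 6.33 to 12.9. Of the alveolar type II markers, SFTPB, SFTPC, SFTPA1 and NKX2-1 stayed below the line of 5 in every group and ABCA3 lay at 6.65 to 7.47. The leukocyte markers PTPRC and CD3E, the endothelial markers PECAM1, CDH5 and VWF, and the fibroblast markers COL3A1 and PDGFRB also stayed below 5, while CD14 lay at 6.45 to 8.13, COL1A1 at 4.70 to 5.72 and DCN at up to 5.06. In RNA of a whole culture, fewer cells that express a gene and less RNA per cell cannot be told apart.

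The receptor and its chaperones lie at separate places in the genome (RefSeq, GRCh38.p14). NR3C1 spans chr5:143277931-143435512, FKBP4 chr12:2794970-2805423, HSP90AA1 chr14:102080742-102139749, HSP90AB1 chr6:44246194-44253883, PTGES3 chr12:56663349-56688284 and STIP1 chr11:64185272-64204543. HSP90 genes are textbook targets of the heat shock factor HSF1, which binds repeats of the unit GAA in alternating orientation. Promoter windows of 300 bases (from 250 before to 50 after each RefSeq start) were therefore searched on both strands for 3 joined units, TTCNNGAANNTTC or its reverse complement GAANNTTCNNGAA, and for 2 joined units, TTCNNGAA or GAANNTTC, which are contained in the longer motif. The longer motif stood in 172 of all 35116 windows, 0.49%, and the shorter in 4737, 13.5%. The longer motif was found in 1 of the 2 HSP90AA1 windows and in 1 of the 3 HSP90AB1 windows. STIP1 held the shorter one in 1 of 2 windows, and the 7 NR3C1 windows and the PTGES3 window held neither. FKBP4 was not searched. Both matching stretches are shown because the HSP90 transcripts gave the clearest dex response in siNS cells; capitals mark the motif bases, and a match is a description of the letters, not a bound site. The HSP90AA1 stretch covers bases −108 to −56 from a start inside the annotated gene at chr14:102087100-102087152 on the minus strand, and the HSP90AB1 stretch, with 2 copies of the motif, covers bases −185 to −80 from a start inside that gene at chr6:44247758-44247863 on the plus strand.
HSP90AA1: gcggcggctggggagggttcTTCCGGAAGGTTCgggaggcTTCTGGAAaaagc
HSP90AB1: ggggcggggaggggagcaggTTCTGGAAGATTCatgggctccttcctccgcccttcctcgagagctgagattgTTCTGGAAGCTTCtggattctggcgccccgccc

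Dex lowered the HSP90 and FKBP4 transcripts in siNS cells. HSP90AA1, HSP90AB1 and FKBP4 fell to between 72.9% and 79.2% of their ethanol level after 6 h, and no member rose. Of the 9 kept probes, 4 were called lower in siNS cells at an adjusted p under 0.05 (limma, Benjamini-Hochberg over all kept probes); of all kept probes 14.8% were called and 7.95% were called lower. The median difference of the 9 probes was −0.33 on the log2 scale, against −0.03 over all kept probes, and 8 of the 9 lay below 0 against 55.8% of all. Values below are log2 intensities and differences between them ± SE of the fit.

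The receptor itself was read by 1 probe clear of background, ILMN_2389347, with a mean of 6.63 over all arrays. The 6 siNS ethanol arrays ran from 6.69 through a median of 6.82 to 7.28, and the 6 siNS dex arrays from 6.01 through 6.60 to 6.98. The groups overlapped, and the difference of −0.31 ± 0.15 was not called (adjusted p = 0.174). After CCAR1 depletion the ethanol arrays stood at 6.85, 6.86, 6.75 and 6.92 and the dex arrays at 6.18, 6.22, 6.63 and 6.43, which did not overlap. That difference was −0.48 ± 0.18 (adjusted p = 0.122). In siZNF282 cells the 2 ethanol arrays, at 6.83 and 6.92, also stood above both dex arrays, at 5.96 and 6.40. Their difference of −0.70 ± 0.25 was not called either (adjusted p = 0.108).

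In siCoCoA cells NR3C1 read 6.72, 6.94, 6.65 and 6.75 in ethanol and 5.97, 6.52, 6.74 and 6.42 in dex, with 1 dex array among the ethanol values. The siCCAR2 ethanol arrays spread most, at 6.09, 6.34, 7.15 and 6.80, while the siCCAR2 dex arrays lay within 6.53 to 6.55; the difference there was −0.05 ± 0.18. No single siRNA thus gave a called change of NR3C1, although it was called in siNS cells with array weights (−0.38, adjusted p = 0.0441) and in siCCAR1 cells when those 2 groups alone were fitted (adjusted p = 0.0296). Averaged over the 5 siRNAs, each with equal weight, NR3C1 was lower in dex by −0.38 ± 0.09 (adjusted p = 0.000683), which is 77.0% of the ethanol level. Of the 20 pairs of same-numbered ethanol and dex arrays, 16 were lower in dex.

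Other NR3C1 probes carried little signal. ILMN_1668525 was above 5 in 2 of the 10 groups, siCoCoA in ethanol (5.02) and siCCAR2 in dex (5.08), and its averaged dex difference of −0.00 ± 0.10 was not called. ILMN_1812384 was above the line in no group, with group means of 4.36 to 4.74, and was not kept. The statements on NR3C1 therefore rest on 1 probe.

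FKBP4, the immunophilin that favours hormone binding, was the member with the widest range, from a group mean of 9.00 in siCCAR1 ethanol to 7.40 in siZNF282 dex. In siNS cells the ethanol arrays ran from 8.57 through 8.76 to 8.96 and the dex arrays from 8.05 through 8.40 to 8.68. The groups overlapped at their edges and the difference was −0.40 ± 0.12 (adjusted p = 0.0151). Without siNS dex array 1 or 3 the adjusted p was 0.0512 or 0.0526, with differences of −0.34 and −0.35.

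After CoCoA depletion FKBP4 read 7.97, 8.61, 8.58 and 8.34 in ethanol and 7.62, 8.25, 7.79 and 7.96 in dex. The arrays of number 1 and number 2 set the overlap, since the lowest ethanol array lay below the highest dex array. The difference of −0.47 ± 0.14 was called (adjusted p = 0.0329), the 1 member probe of 9 called there against 8.86% of all probes. That call did not hold without ethanol array 2, 3 or 4 or without dex array 1, 3 or 4, with differences of −0.49 to −0.38 and adjusted p of 0.0537 to 0.145. In siCCAR2 cells the ethanol values of 8.45, 8.40, 8.54 and 8.63 all lay above the dex values of 8.17, 8.27, 7.99 and 8.30. In siZNF282 cells the ethanol values of 8.00 and 8.03 lay above the dex values of 7.44 and 7.37. The differences were −0.32 ± 0.14 (adjusted p = 0.197) and −0.61 ± 0.20 (adjusted p = 0.0746). With same-numbered arrays taken as pairs, both were called, at adjusted p of 0.0289 and 0.00603.

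In siCCAR1 cells FKBP4 stood at 9.07, 9.22, 8.87 and 8.84 in ethanol and at 8.76, 9.01, 8.67 and 8.65 in dex, a difference of −0.23 ± 0.14 with overlapping groups (adjusted p = 0.486). Each dex array lay below the ethanol array of its own number there, as in all 20 pairs of the 5 siRNAs. The average over the siRNAs was −0.41 ± 0.07 (adjusted p = 1.21e-05).

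**Figure D1:**
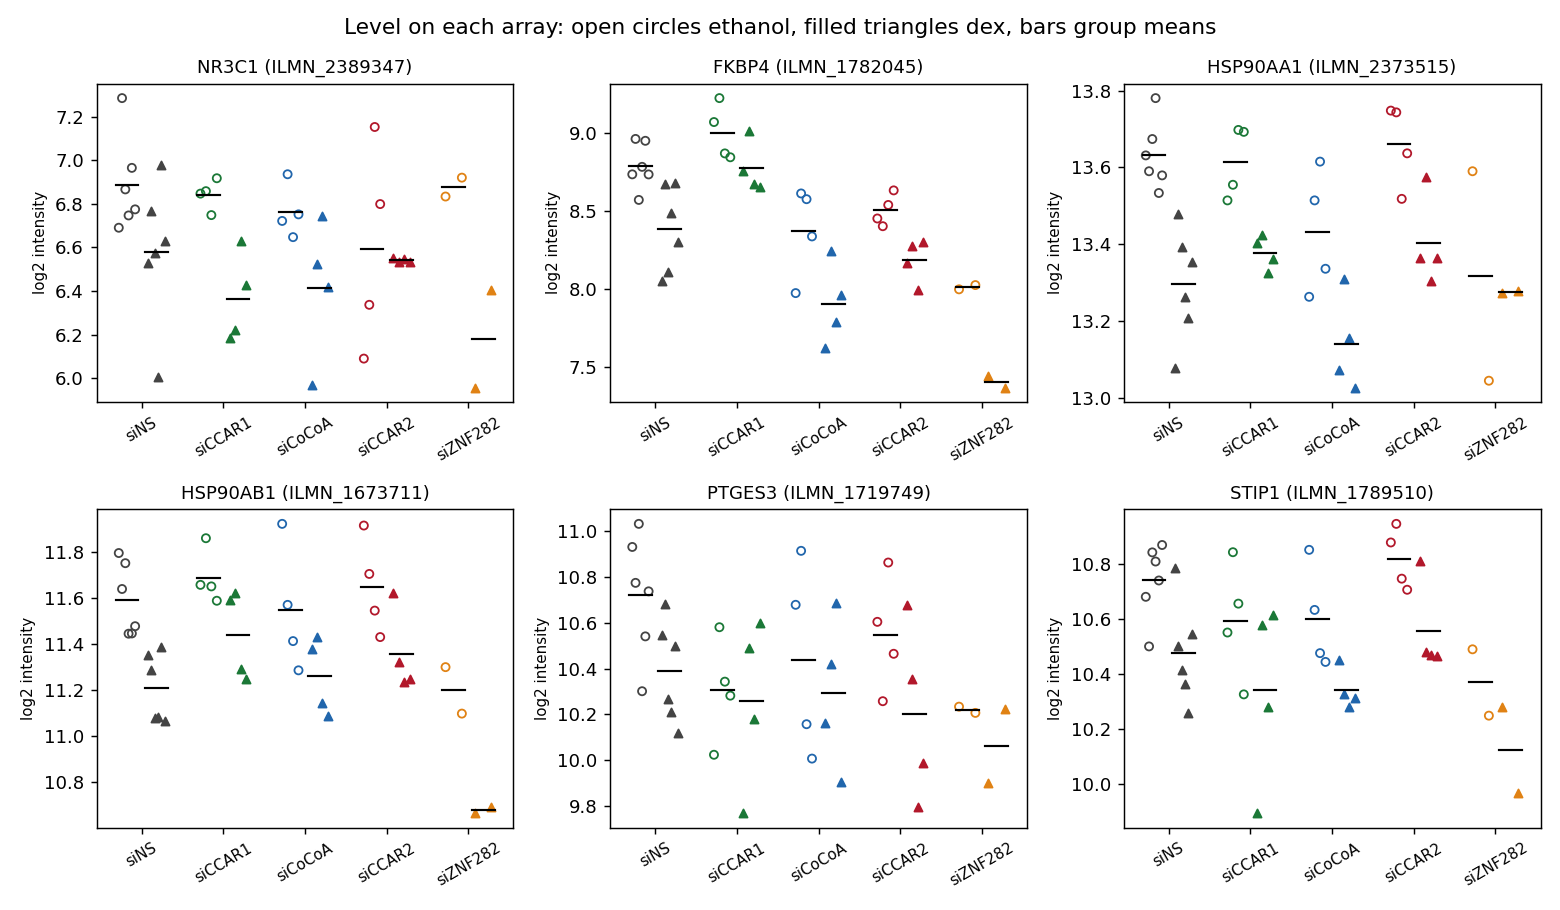
Log2 intensity (vertical axes, each with its own range) of the brightest probe of each member on every array, by siRNA; open circles are ethanol arrays, filled triangles dex arrays, and bars group means. FKBP4 and HSP90AB1 are lowest in siZNF282 dex, at 7.40 and 10.68, and the HSP90AB1 and HSP90AA1 arrays of siNS do not overlap between treatments.

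HSP90AA1 encodes the stress-inducible cytosolic HSP90 and HSP90AB1 the constitutive one. The brightest HSP90AA1 probe, ILMN_2373515, ran from 13.53 through 13.61 to 13.78 in siNS ethanol and from 13.08 through 13.31 to 13.48 in siNS dex. Every dex array lay below every ethanol array, and the difference was −0.34 ± 0.09 (adjusted p = 0.00513). The second probe, ILMN_1691097, ran from 12.77 to 12.99 in ethanol and from 12.14 to 12.60 in dex, again without overlap, and differed by −0.46 ± 0.10 (adjusted p = 0.000665). The third probe, ILMN_1687546, was dim, with a mean of 5.95, and showed no such difference in siNS cells (0.02 ± 0.17, adjusted p = 0.964). The probes of this gene thus disagreed, and the transcripts each one reads were not examined.

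HSP90AB1 read 11.45 through 11.56 to 11.80 in siNS ethanol and 11.07 through 11.18 to 11.39 in siNS dex. Here too the groups were separate, and the difference was −0.38 ± 0.11 (adjusted p = 0.0104), or 76.6% of the ethanol level. In siZNF282 cells HSP90AB1 stood at 11.30 and 11.10 in ethanol and at 10.66 and 10.69 in dex. This difference of −0.52 ± 0.19 was not called (adjusted p = 0.0991), and was called when arrays were taken as pairs (adjusted p = 0.0207). In siCCAR1, siCoCoA and siCCAR2 cells HSP90AB1 differed by −0.25, −0.29 and −0.29, with overlapping groups and no call. HSP90AB1 was lower in dex in 20 of 20 pairs and the 2 bright HSP90AA1 probes in 19 of 20 each.

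HSP90AA1 in siZNF282 cells was the exception. ILMN_2373515 stood at 13.59 and 13.04 in ethanol and at 13.27 and 13.28 in dex, so the ethanol arrays lay on either side of the dex arrays and the difference was −0.04 ± 0.15. For ILMN_1691097 it was 0.03 ± 0.17, with 12.38 and 11.97 in ethanol and 12.22 and 12.19 in dex. In both probes the low ethanol array was number 3, while the pair of number 2 was lower in dex (−0.32 and −0.16). In siCCAR1, siCoCoA and siCCAR2 cells the bright HSP90AA1 probes differed by −0.23 to −0.34, none called; with arrays as pairs, ILMN_1691097 was called in siCoCoA (adjusted p = 0.0285) and siCCAR2 cells (adjusted p = 0.0449). Without siCoCoA dex array 1 or siCCAR2 dex array 1 it was called too (−0.42 and −0.41, adjusted p = 0.0262 and 0.0309), as was ILMN_2373515 without siCoCoA dex array 2 (−0.35, adjusted p = 0.0492). Averaged over the 5 siRNAs the bright probes fell by 0.23 ± 0.05 (adjusted p = 0.000393) and by 0.26 ± 0.06 (adjusted p = 0.000397), and HSP90AB1 fell by 0.35 ± 0.06 (adjusted p = 3.17e-05).

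STIP1, the adaptor between HSP70 and HSP90, gave the most even set of differences. It ran from 10.50 through 10.77 to 10.87 in siNS ethanol and from 10.26 through 10.46 to 10.78 in siNS dex, with overlap. Its dex differences were −0.26, −0.25, −0.26, −0.26 and −0.25 for siNS, siCCAR1, siCoCoA, siCCAR2 and siZNF282, none of them called (smallest adjusted p = 0.116). Without siNS dex array 1 the siNS difference was −0.32 and called (adjusted p = 0.0469). The average was called, at −0.26 ± 0.06 (adjusted p = 0.00221), and 17 of 20 pairs were lower in dex.

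PTGES3, the p23 cochaperone, varied between arrays of the same group, with an SD of up to 0.43 (siCoCoA ethanol). It ran from 10.30 through 10.76 to 11.03 in siNS ethanol and from 10.12 through 10.38 to 10.68 in siNS dex. The groups overlapped, and neither this difference (−0.33 ± 0.17, adjusted p = 0.207) nor the average over the siRNAs (−0.20 ± 0.10, adjusted p = 0.114) was called. Of its 20 pairs, 15 were lower in dex.

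Averaged over the 5 siRNAs, 6 of the 9 probes, from 5 of the 6 genes, were called lower in dex and none higher, where 30.1% of all probes were called and 16.0% called lower. The median of the 9 was −0.26 against −0.02 over all probes. Each of these 6 calls held in every alternative tried, including the removal of each array in turn. In siCCAR1, siCCAR2 and siZNF282 cells limma called none of the 9 dex differences, against 6.66%, 8.75% and 5.94% of all probes. An unadjusted p under 0.05, in either direction, was met by 2, 5 and 3 of the 9. The siCCAR2 differences included a rise of 0.48 for the dim NR3C1 probe ILMN_1668525, with 0 of 4 pairs lower in dex. With arrays as pairs, a choice made after seeing the data, 2 member probes were called in each of siCoCoA, siCCAR2 and siZNF282 cells and 0 in siCCAR1 cells. The shares of all probes given above come from the fit without pairs. These paired counts thus have no background beside them and are not read as a result about the members.

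**Figure D2:**
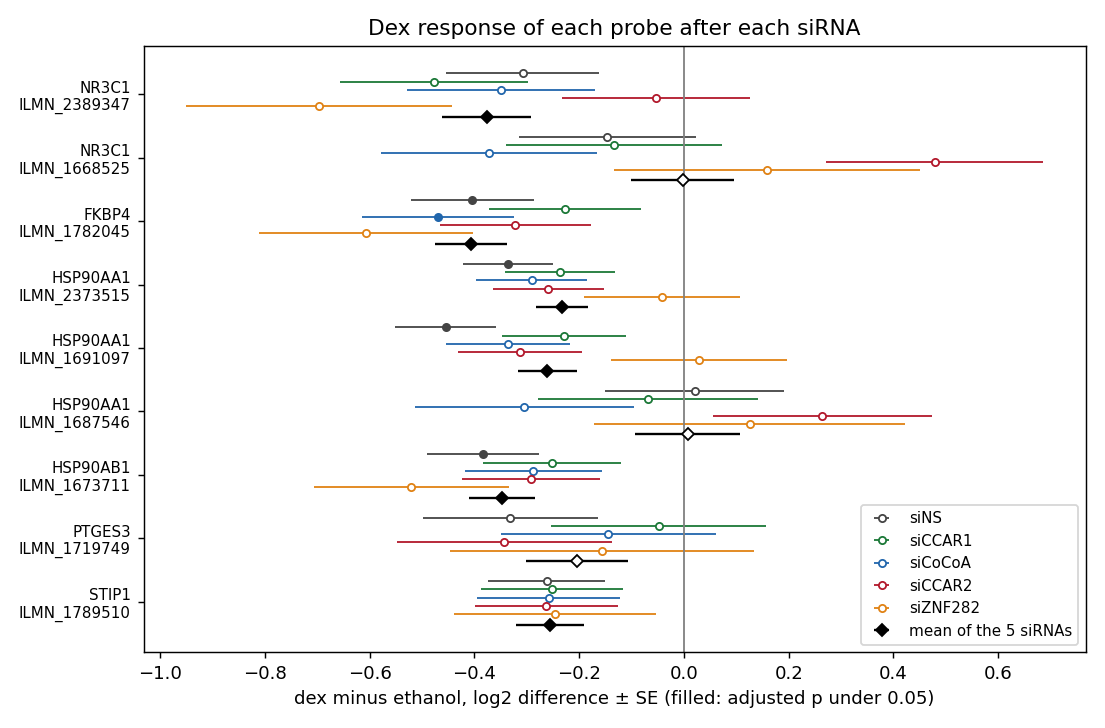
Dex minus ethanol, as log2 difference ± SE of the limma fit (horizontal axis), of each kept member probe after each siRNA and averaged over the 5 siRNAs; filled symbols have an adjusted p under 0.05. The averages of NR3C1 ILMN_2389347, FKBP4, both bright HSP90AA1 probes, HSP90AB1 and STIP1 are filled and lie between −0.41 and −0.23.

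Whether depletion changed the dex response of a member was tested as the difference between the response after each siRNA and that in siNS cells; these 4 tests share the siNS arrays. None of the 9 probes was called by limma in any of them, where 0.0791%, 0.0144%, 0.0719% and 0.173% of all probes were called for siCCAR1, siCoCoA, siCCAR2 and siZNF282. An unadjusted p under 0.05 was met by 0, 0, 1 and 1 of the 9. For siZNF282 it was HSP90AA1 ILMN_1691097, with a difference in response of 0.48 (95% interval 0.09 to 0.88, adjusted p = 0.405). For siCCAR2 it was the dim NR3C1 probe ILMN_1668525, at 0.62 (0.08 to 1.17, adjusted p = 0.655). That probe passed the filter only through siCoCoA ethanol and siCCAR2 dex, and the latter group enters this difference. Its value is therefore no evidence of a changed response.

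The intervals remained wide for most members. For FKBP4 the differences in response were 0.18 (−0.20 to 0.56), −0.07 (−0.44 to 0.31), 0.08 (−0.30 to 0.46) and −0.20 (−0.68 to 0.28) in the same order of siRNAs. For NR3C1 ILMN_2389347 they were −0.17 (−0.64 to 0.30), −0.04 (−0.51 to 0.43), 0.26 (−0.21 to 0.73) and −0.39 (−0.98 to 0.21). For STIP1 they were 0.01, 0.00, −0.00 and 0.02, with intervals from −0.43 to 0.47 at the widest. A missing call here does not show that the responses were alike.

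FKBP4 differed from siNS in opposite directions between siRNAs. Whether this followed from loss of the targets was not tested. FKBP4 was lower than siNS after CoCoA and ZNF282 depletion, in both treatments, and higher after CCAR1 depletion in dex. In siZNF282 cells it fell to 58.3% of the siNS level in ethanol, with both arrays (8.00 and 8.03) below all 6 siNS arrays, a difference of −0.78 ± 0.17 (adjusted p = 0.000474). In dex it fell to 50.7%, again without overlap, by −0.98 ± 0.17 (adjusted p = 1.96e-05). These FKBP4 values were called in every alternative tried, with ranges of −0.82 to −0.74 and −1.05 to −0.92.

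After CoCoA depletion FKBP4 differed from siNS by −0.41 ± 0.13 in ethanol (adjusted p = 0.0303) and by −0.48 ± 0.13 in dex (adjusted p = 0.0084), with overlapping groups in both. The ethanol call did not hold without siCoCoA array 1 (−0.28, adjusted p = 0.191) or 4, or without siNS array 2 or 5. The dex call did not hold without siCoCoA array 1 (−0.39, adjusted p = 0.0596). After CCAR1 depletion FKBP4 differed by 0.21 ± 0.13 in ethanol (adjusted p = 0.329) and by 0.39 ± 0.13 in dex (adjusted p = 0.0363). The dex call did not hold without siCCAR1 array 1 or 2 or siNS array 1, 3 or 6, with differences of 0.31 to 0.39 and adjusted p of 0.0607 to 0.155. After CCAR2 depletion the FKBP4 differences of −0.28 and −0.20 were not called.

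HSP90 transcripts were also lower in siZNF282 cells, HSP90AB1 in both treatments and HSP90AA1 in ethanol. HSP90AA1 ILMN_1691097, at 12.38 and 11.97 in ethanol, lay below all siNS ethanol arrays and differed by −0.67 ± 0.14 (adjusted p = 0.000264). This call held in every alternative, at −0.87 to −0.47. ILMN_2373515 differed by −0.31 ± 0.12 (adjusted p = 0.048), and without the siZNF282 array at 13.04, the difference was −0.04 (adjusted p = 0.862). In dex the 2 probes differed by −0.19 and −0.02, neither called. HSP90AB1 differed by −0.39 ± 0.15 in ethanol (adjusted p = 0.0458) and by −0.53 ± 0.15 in dex (adjusted p = 0.0071), in both without overlap. Leaving out either siZNF282 array ended both calls: the ethanol differences were then −0.50 and −0.29 (adjusted p = 0.102 and 0.295) and the dex differences −0.55 and −0.52 (adjusted p = 0.0536 and 0.0808). The ethanol call of HSP90AB1 also did not hold without siNS array 1, 2 or 3, and that of ILMN_2373515 without siNS array 1, 2, 3, 4 or 6.

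After CoCoA depletion HSP90AA1 ILMN_1691097 read 12.65, 12.60, 12.55 and 12.41 in ethanol, below all siNS ethanol arrays. The difference of −0.30 ± 0.11 was not called (adjusted p = 0.0628). It was called with a filter line of 6, quantile normalization again, trend with robust eBayes, array weights and the replicate block, at −0.35 to −0.28 and adjusted p of 0.00744 to 0.0457. In dex the difference was −0.18 ± 0.11 with overlapping groups (adjusted p = 0.285).

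The dim HSP90AA1 probe ILMN_1687546 followed another pattern. In siCCAR1 cells it read 6.46, 6.73, 6.56 and 6.61 in ethanol, all above the siNS range of 5.73 to 6.05. The difference was 0.70 ± 0.19 (adjusted p = 0.012) and held in every alternative. In dex it was 0.61 ± 0.19 (adjusted p = 0.0231), and the call did not hold without siNS array 5 (0.50, adjusted p = 0.066) or siCCAR1 array 1 (0.54, adjusted p = 0.0856). In siCoCoA ethanol it read 6.39, 6.23, 6.51 and 6.47, also above all siNS arrays, and the difference of 0.51 ± 0.19 was not called (adjusted p = 0.0709). It was called when those 2 groups alone were fitted (adjusted p = 0.00438) and with array weights (adjusted p = 0.0249). The probe was lower after CCAR2 depletion in ethanol, at 5.77, 4.56, 5.67 and 5.35 (−0.55 ± 0.19, adjusted p = 0.0452). Without the array at 4.56 that difference was −0.30 (adjusted p = 0.352), and the call also failed without siCCAR2 array 4 or any 1 of siNS arrays 2 to 6.

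In siZNF282 cells ILMN_1687546 read 4.57 and 5.71 in ethanol and 4.89 and 5.63 in dex. The differences were −0.76 ± 0.24 (adjusted p = 0.0164) and −0.65 ± 0.24 (adjusted p = 0.0404). Without the array at 4.57 the first was −0.18 (adjusted p = 0.753), and without that at 4.89 the second was −0.28 (adjusted p = 0.621). The dex call also failed without siNS array 3, 4 or 6.

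None of the 8 depletion comparisons called NR3C1, PTGES3 or STIP1. The extremes over these 8 were −0.40 ± 0.21 for NR3C1 ILMN_2389347 (siZNF282 in dex, adjusted p = 0.153), −0.50 ± 0.24 for PTGES3 (siZNF282 in ethanol, adjusted p = 0.109) and −0.37 ± 0.16 for STIP1 (siZNF282 in ethanol, adjusted p = 0.071). Both siZNF282 ethanol arrays lay below all siNS ethanol arrays for PTGES3 and for STIP1. The NR3C1 value was called without siNS dex array 4 (−0.51, adjusted p = 0.047), and the STIP1 value without siNS ethanol array 2 (−0.42, adjusted p = 0.0461) and with trend and robust eBayes (adjusted p = 0.0476).

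**Figure D3:**
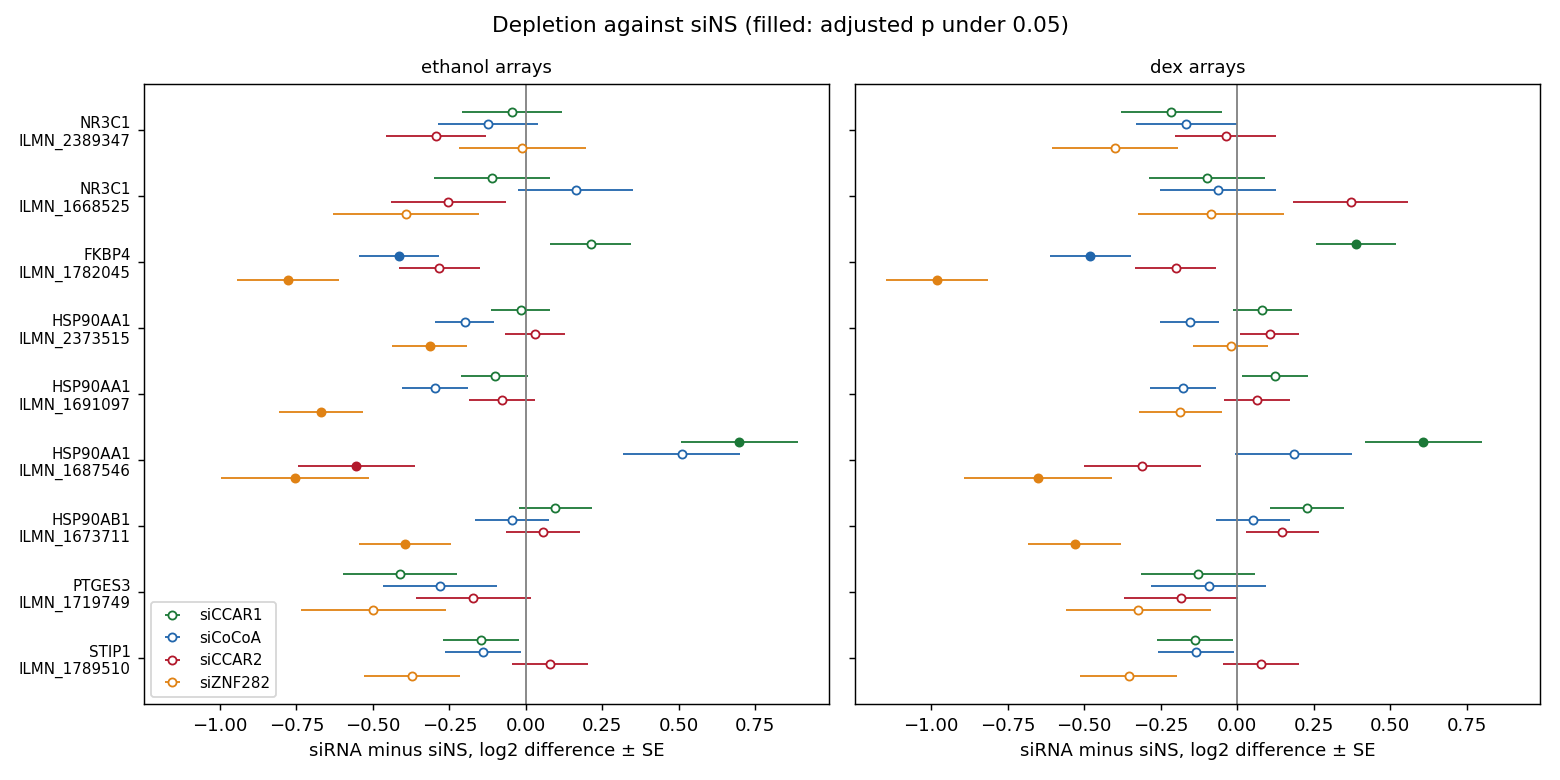
Each siRNA minus siNS, as log2 difference ± SE of the limma fit (horizontal axes), for the kept member probes in ethanol (left) and dex (right); filled symbols have an adjusted p under 0.05. FKBP4 in siZNF282 cells is the lowest point of each panel, at −0.78 and −0.98, and the siCCAR1 values of FKBP4 lie above 0.

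By count, 1, 1, 1 and 5 of the 9 probes were called against siNS in ethanol for siCCAR1, siCoCoA, siCCAR2 and siZNF282, where 12.4%, 13.8%, 14.9% and 30.2% of all probes were called, and 16.6% were called lower for siZNF282. The 5 siZNF282 probes came from 3 genes, since HSP90AA1 entered with 3 probes. In dex the counts were 2, 1, 0 and 3, against 17.7%, 18.6%, 17.4% and 28.6% of all probes, with 14.2% called lower for siZNF282. The dex count of 0 for siCCAR2 was also 0 at an unadjusted p under 0.05. The comparisons of one treatment share the siNS arrays. The median of the 9 probes in siZNF282 cells was −0.39 in ethanol and −0.35 in dex, against −0.08 and −0.02 over all probes.

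Interferon-stimulated transcripts moved with the depletions. All 9 listed genes with a kept probe were called higher than siNS in each of the 8 comparisons. Their mean level per array was 6.25 to 6.97 in siNS ethanol and 5.93 to 8.55 in siNS dex. It was 8.74 to 10.64 and 9.87 to 11.53 in siCCAR1 ethanol and dex, 11.02 to 11.81 and 11.87 to 12.26 in siCoCoA, 10.52 to 12.43 and 10.75 to 12.14 in siCCAR2, and 13.02 to 13.43 and 13.05 to 13.19 in siZNF282. The FKBP4 means in ethanol were 8.79 in siNS, 9.00 in siCCAR1, 8.37 in siCoCoA, 8.51 in siCCAR2 and 8.01 in siZNF282. In dex they were 8.38, 8.77, 7.91, 8.18 and 7.40 in the same order. The part of the interferon-stimulated transcripts in the depletion results was not tested.

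The order of the 10 groups differed between members. For FKBP4 it ran from siCCAR1 ethanol (9.00) through siNS ethanol (8.79), siCCAR1 dex (8.77), siCCAR2 ethanol (8.51), siNS dex (8.38), siCoCoA ethanol (8.37), siCCAR2 dex (8.18), siZNF282 ethanol (8.01) and siCoCoA dex (7.91) to siZNF282 dex (7.40). Of its 9 gaps between neighbours, 4 exceeded the larger SD of the neighbouring groups, those below siCCAR1 ethanol, siCCAR1 dex, siCCAR2 dex and siCoCoA dex. For HSP90AB1 the sole such gap, of 0.52, lay between siZNF282 ethanol (11.20) and siZNF282 dex (10.68). The bright HSP90AA1 probes had 2 and 1 such gaps, and in both the siNS, siCCAR1 and siCCAR2 ethanol groups stood at the top.

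NR3C1, PTGES3 and STIP1 had no neighbours in this order that differed by more than their SD. NR3C1 ran from 6.89 in siNS ethanol to 6.18 in siZNF282 dex, PTGES3 from 10.72 in siNS ethanol to 10.06 in siZNF282 dex, and STIP1 from 10.82 in siCCAR2 ethanol to 10.12 in siZNF282 dex. FKBP4, HSP90AB1, NR3C1, PTGES3 and STIP1 thus shared siZNF282 dex, a group of 2 arrays, as their lowest group. For NR3C1, PTGES3 and STIP1 that rank lay within the SD, and the share of all probes lowest in this group was not counted.

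Across the 10 group means, which share the siRNAs and treatments, the brightest member probes correlated with each other at Pearson r of 0.56 to 0.88, given as a description. FKBP4 and HSP90AB1 had the highest value, 0.88, and NR3C1 and HSP90AA1 the lowest. The genes whose 10 group means followed FKBP4 most closely were CHAC2, PTGES2 and CDCA2 (r of 0.98, 0.98 and 0.97). For NR3C1 they were GRWD1, CNOT9 and RRM2 (0.95, 0.92 and 0.92). The bright HSP90AA1 probe was followed by EXO1, KIF23 and GJC1 (0.97, 0.97 and 0.96), HSP90AB1 by GMPPB, PRICKLE4 and STK32B (0.98, 0.97 and 0.97), PTGES3 by HMGN2, NOVA1 and EIF4E (each 0.94), and STIP1 by DIABLO, DHX37 and RPL23AP32 (0.98, 0.97 and 0.97).

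Other genes of the HSP90 and HSP70 systems were read from their brightest probes, with p adjusted over the same probes. Among 18 kept HSP90 cochaperones of 22 listed, averaged over the siRNAs, 4 fell in dex, 2 rose and 12 were not called, with a median of −0.05 against −0.01 over all genes; 30.1% of all probes were called and 16.0% called lower, so these counts lie near the background. CHORDC1, an HSP90 cochaperone with CHORD domains, fell most, by 0.81 ± 0.07 (adjusted p = 2.94e-12), and was called lower after each of the 5 siRNAs on its own (−0.93 to −0.76). CACYBP fell by 0.36 ± 0.06 and SUGT1, which works with HSP90 in kinetochore assembly, by 0.29 ± 0.07. FNIP2, a partner of folliculin and a slow-down factor of the HSP90 ATPase, rose by 0.49 ± 0.10, from group means near the line of 5.

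Of 16 kept HSP70 and HSP40 genes of 19 listed, 10 fell in dex, 2 rose and 4 were not called on average over the siRNAs, with a median of −0.22, beside the same 30.1% and 16.0% of all probes. DNAJB4, an HSP40, fell by 0.70 ± 0.10 (adjusted p = 1.02e-06). HSPA1A and HSPA1B, inducible HSP70 genes whose coding sequences are near identical, fell by 0.66 ± 0.10 and 0.65 ± 0.07, and their probes cannot be taken as separate readings. HSPH1, a nucleotide exchange factor of HSP70, fell by 0.59 ± 0.04, and DNAJA1, an HSP40 that helps load client proteins, by 0.50 ± 0.05; both were called lower after each of the 5 siRNAs. The 2 that rose were DNAJB1, the main inducible HSP40, at 0.65 ± 0.06 (adjusted p = 5.22e-11), and BAG3, a cochaperone of HSP70, at 0.35 ± 0.05; BAG3 was named after its values were seen.

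Of 9 kept other heat shock genes, HSPB8 and HSPE1 fell by 0.54 ± 0.10 and 0.26 ± 0.07, and HSPB1, the small heat shock protein HSP27, rose by 0.28 ± 0.05. Among 9 other kept FK506-binding proteins 1 was called, FKBP14, an isomerase of the endoplasmic reticulum, which fell by 0.38 ± 0.08. In this average over the siRNAs 30.1% of all probes were called and 16.0% called lower, so neither family stands out by count. The mineralocorticoid receptor gene NR3C2, close kin of NR3C1, was the sole other steroid receptor kept, at group means of 4.42 to 5.34, and fell by 0.39 ± 0.09 (adjusted p = 0.00123). PGR, ESR1 and ESR2 lay below 5 in every group.

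**Figure D4:**
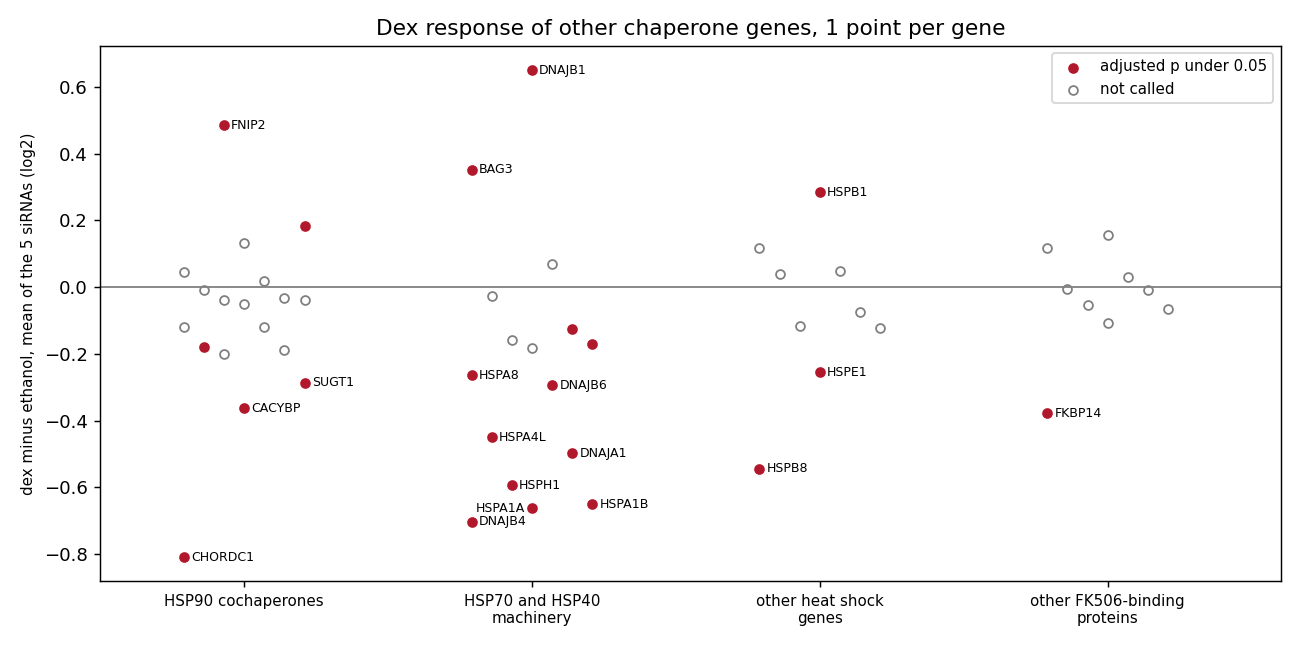
Dex minus ethanol averaged over the 5 siRNAs, as log2 difference (vertical axis), for each kept gene of 4 lists; red points have an adjusted p under 0.05, grey rings were not called, and horizontal scatter within a list has no meaning. CHORDC1 is lowest, at −0.81, and DNAJB1 highest, at 0.65; points past 0.25 that were called carry their names.

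After ZNF282 depletion, where FKBP4 and HSP90AB1 were lower in both treatments, 6 of the 16 HSP70 and HSP40 genes were called lower and 1 higher in each treatment. Of all probes, 30.2% were called and 16.6% called lower in ethanol, and 28.6% and 14.2% in dex. HSPA2, HSPA4L, HSPA1A and HSPA4 differed by −1.44 ± 0.22, −1.19 ± 0.18, −1.09 ± 0.24 and −0.91 ± 0.22 in ethanol. HSP90B1, the HSP90 of the endoplasmic reticulum, was higher by 0.71 ± 0.15 in ethanol and 0.85 ± 0.15 in dex, and HSPA5, also called BiP, by 0.79 ± 0.17 and 0.58 ± 0.17. Of the other heat shock genes, HSPB1 in ethanol (0.37 ± 0.13) and HSPB8 in dex (0.93 ± 0.24) were called higher too. HSPE1 was called lower (−0.50 ± 0.16 in ethanol and −0.66 ± 0.16 in dex), and SERPINH1 was not called (0.06 and 0.04). The mitochondrial HSP90, TRAP1, was lower by −0.46 ± 0.16 and −0.80 ± 0.16.

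After CoCoA depletion, where FKBP4 was lower, CHORDC1 was lower by −1.14 ± 0.13 in ethanol and −1.13 ± 0.13 in dex, and DNAJB4 was higher by 1.02 ± 0.20 and 1.01 ± 0.20. The HSP90 cochaperones called there were 6 lower and 1 higher of 18 in ethanol, and 4 lower and 1 higher in dex, against 13.8% and 18.6% of all probes called. TOMM34, which binds HSP70 and HSP90, was lower after CoCoA depletion (−0.60 ± 0.13 and −0.61 ± 0.13) and higher after CCAR1 depletion (0.45 ± 0.13 and 0.76 ± 0.13), the same pair of directions as the FKBP4 values. After CCAR2 depletion SGTA, a small cochaperone that binds HSP70 and steroid receptors, was lower by −0.73 ± 0.18 and −0.77 ± 0.18, and HSPA2 by −1.01 ± 0.17 and −0.72 ± 0.17.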

How the data were processed

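Total RNA labelled with Cy3 was read on 40 Illumina arrays. The deposited values were normalized log2 probe intensities; limma 3.14.4 is named per the submitters' processing notes, while their background correction, normalization and filter are not given in the sources used here. Their span was read as base 2. A table of non-normalized signals with 80 columns named by chip position (40 signal, 40 detection p) was not used, since no label pairs them with samples. Of 34469 probes, 26360 carried 1 gene symbol, 3 several, and 8106 were not listed; 26327 matched a RefSeq gene and no symbol changed. Probes with a group mean above 5 (log2) in at least 1 of 10 groups were kept (13903 probes, 10608 genes).

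A model with 1 mean for each group was fitted over the 40 arrays in limma 3.58.1 (lmFit, then eBayes; R 4.3.3; 30 residual and 6.07 prior degrees of freedom). The 18 comparisons were tested 2-sided, with Benjamini-Hochberg adjustment over kept probes and calls at adjusted p under 0.05. The steps were tested on simulated data. Same-numbered ethanol and dex arrays of an siRNA deviated together from their group means in 20 of 20 pairs (r of 0.107 to 0.444). In siZNF282 cells, with 2 arrays a group, both pairs have the same r of 0.178 by construction. Over all pairs of groups, 105 of 148 same-numbered pairs passed r of 0.1, and arrays of different numbers were not compared. Whether the titles' numbers mark true pairs is therefore not settled, and paired values are given where a call changes. Between depleted and siNS arrays of a treatment, every pair passed r of 0.1, with 3 or more pairs, in 2 of 8 comparisons. These were siCoCoA and siCCAR2 in dex, where the replicate block changed no member call. The other 6 were not paired. Alternatives were the probe filter, brightest probe per gene, normalization, samples in the fit, variance model, array weights, blocks and each array left out. Members and gene lists were chosen with earlier results of these data known. The text names all member probes, up to 4 called genes per list and comparison with the largest change, and the 3 genes most like each member; a gene named for 1 comparison may be given in others. Promoter sequences are RefSeq's, GRCh38.p14.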

Additional observations from a re-analysis of the deposited data

Results flagged for a closer look

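Groups of 4 to 6 arrays were searched for a highest or lowest array that stood apart from the others by Dixon's criterion; among 72 such groups of member probes 2 held one, and chance alone marks about 1 group in 20. NR3C1 ILMN_1668525 read 5.32 on siNS dex array 6, where the nearest of the other 5 arrays read 4.68 and the lowest 4.40; this probe is near the detection line. STIP1 read 10.81 on siCCAR2 dex array 1, where the other 3 arrays read 10.47 to 10.48, so the siCCAR2 dex mean of 10.56 lies above all but that array. The cause was not tested.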

How the results depend on the processing

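No called value of a member changed sign in any alternative; with 1 array left out, 130 of 2088 values changed sign, each of them uncalled in the fit to all arrays. Member probes called in siNS dex (4), in the averaged response (6) and in all differences of response (0) kept their counts within 1.5 times. Elsewhere counts moved as follows. With a filter line of 6, or quantile normalization again, siCoCoA in ethanol had 2. Without a filter, siCCAR2 ethanol had 0, siZNF282 ethanol 3 and siCCAR1 dex 1; the brightest probe per gene gave the same 3 counts and siCCAR1 ethanol 0. Fitting only the groups compared gave 1 for the siCCAR1 dex response (NR3C1), 0 for the siCoCoA response, and 0, 3, 1 and 0 for siCCAR2 ethanol, siZNF282 ethanol, siCCAR1 dex and siCoCoA dex. Trend with robust eBayes gave 3 for the siCoCoA response and 2 for siCoCoA ethanol. Array weights gave 1 and 3 for the siCCAR1 and siCoCoA responses, and 3 and 3 for siCoCoA and siZNF282 ethanol. The replicate block over all arrays gave 4, 2 and 2 for the siCoCoA, siCCAR2 and siZNF282 responses and 2 for siCoCoA ethanol; the replicate block within siRNA, chosen after seeing the data, gave 2, 2 and 2 for these responses, and changed no other call. With each array left out, counts ran from 0 to 2 (siCoCoA response), 0 to 1 (siCCAR2 response), 0 to 1 (siCoCoA ethanol), 0 to 1 (siCCAR2 ethanol), 3 to 5 (siZNF282 ethanol), 0 to 2 (siCCAR1 dex), 0 to 1 (siCoCoA dex) and 1 to 3 (siZNF282 dex). Fewer arrays or probes enter some of these fits; otherwise the cause was not tested.

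Counts over all probes moved by more than 1.5 times for the dex response in siZNF282 (826, against 57 with only those groups, 412 with array weights and 387 to 1126 with an array left out), in siCCAR2 (1216 to 671 with only those groups) and in siCCAR1 (926 to 1658 with array weights); for siCCAR1 ethanol (1727 to 3032) and siZNF282 ethanol (4199 to 2476) with array weights; for siCCAR2 dex (2421 to 1613) with only those groups; and with an array left out for siZNF282 ethanol (lowest 1870) and dex (3976, lowest 2208). The differences of response gave 11, 2, 10 and 24, against 0 to 363 over the alternatives.

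The 2 arrays per siZNF282 group, the single NR3C1 probe above background and the absence of stated culture replicates limit these values most.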
